A study of Mus musculus with 4 samples.

Results

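Wdfy4, Gcsam, Cd24a, Plpp1 and Fzd1 are 5 genes that recur in expression signatures of conventional type 1 dendritic cells (cDC1), the lineage to which the CD8α+ dendritic cells of mouse spleen belong. They were followed here on every probe set whose only gene symbol in the platform annotation is one of these names, which gave 12 probe sets of 45037 on the array other than controls, and 5 of 18193 named genes. Wdfy4 and Fzd1 have a pair each, as does Gcsam, and Cd24a and Plpp1 have 3 each. The choice did not use the values, but it was made with earlier results of these data known.

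The study compared dendritic cells of C57BL/6 mouse spleen in a CD8α+ and a CD8α− group, with 2 Affymetrix Mouse Genome 430 2.0 arrays per group and 4 in all. No treatment, mutation or age is given for either group, and the sort is not described in the sources used here. Whether replicate arrays came from separate mice or pools is not stated, so p-values reflect the spread between arrays, which may be technical only. The comparison asks which genes the populations express at different levels. Values are MAS5 signals, 1 linear intensity per probe set and array. Differences are the log2 signal after quantile normalization in CD8α+ cells minus that in CD8α− cells, ± the standard error of the limma fit, with n = 2 arrays per group. Background on an array was taken as its highest Bacillus control probe set, which was 33.6 and 20.1 on CD8α+ arrays 1 and 2, and 39.6 and 23.6 on CD8α− arrays 1 and 2.

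CD8α+ cells are known for taking up dying cells and cross-presenting their antigens on MHC class I to CD8 T cells. Wdfy4 encodes a large BEACH and WD40 repeat protein that cDC1 need for cross-presenting cell-associated antigen. The other 4 genes have more general roles. Cd24a encodes a small, heavily glycosylated surface protein held by a lipid anchor (heat stable antigen), which binds Siglec-G and is used to tell dendritic cell lineages apart. Gcsam (also Gcet2 or M17) encodes a signalling adaptor of germinal centre B cells that restrains cell motility. Plpp1 encodes a membrane phosphatase that removes the phosphate from lysophosphatidic acid, sphingosine 1-phosphate and phosphatidic acid. Fzd1 encodes a Frizzled receptor for Wnt ligands.

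Upstream sequences from RefSeq (GRCm38.p6) are shown because the genes were brighter in the same cells, and 3 of the 5 have an entry, Wdfy4, Gcsam and Fzd1. Both sequences below run 5′ to 3′ on the gene's strand over the 250 bases before the listed start, and capitals mark matches to the motifs searched. The Wdfy4 sequence is chr14:33185067-33185316 on the minus strand and lies inside the gene's RefSeq span (chr14:32959547-33193855), so its start is an internal one. The Gcsam sequence is chr16:45610190-45610439 on the plus strand, directly before the gene (chr16:45610440-45622867).
Wdfy4: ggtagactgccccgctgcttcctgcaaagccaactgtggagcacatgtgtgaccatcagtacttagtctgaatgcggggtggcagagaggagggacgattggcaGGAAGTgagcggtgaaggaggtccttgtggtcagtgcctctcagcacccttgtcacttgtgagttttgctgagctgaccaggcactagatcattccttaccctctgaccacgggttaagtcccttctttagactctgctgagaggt
Gcsam: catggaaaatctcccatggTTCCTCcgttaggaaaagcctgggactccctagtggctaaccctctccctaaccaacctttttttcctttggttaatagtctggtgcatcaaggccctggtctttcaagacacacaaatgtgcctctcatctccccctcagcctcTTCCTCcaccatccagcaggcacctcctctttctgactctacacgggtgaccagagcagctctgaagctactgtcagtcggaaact

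Matches to the searched motifs covered 6 letters of the Wdfy4 window and 12 of the Gcsam window. On either strand, 3 short motifs of factors active in dendritic cells were searched: GAGGAA (PU.1-type ETS), GGAAGT (another ETS form) and TGANTCA (AP-1). Wdfy4 held 1 GGAAGT, at 146 to 141 bases before the start, and 19.7% of 32851 promoter windows of the same length hold these letters. Gcsam held 2 matches to GAGGAA on the opposite strand (printed as TTCCTC), at 231 to 226 and 86 to 81 bases before the start. At least 1 match on either strand stands in 23.3% of windows, and the share with 2 was not counted. The Fzd1 window (chr5:4758217-4758466, minus strand) had no match to any of the 3. The AP-1 letters, which none of the 3 windows held, stand in 6.75% of all windows.

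Marker genes separated the groups in the direction of their labels. Of 18 tested cDC1 markers other than the 5 genes, 15 were brighter in CD8α+ cells at an unadjusted p under 0.05, with 0 dimmer, and of 9 tested markers of conventional type 2 cells 7 were dimmer, with 0 brighter. Among all 10530 tested genes these shares were 7.18% brighter and 8.84% dimmer. The 15 include Cd8a, whose product defines the groups, so its direction was fixed in advance. Some markers, such as Gpr33 and Cx3cr1, passed the filter on low signal only through the group where they were brighter. Their part in the counts is no separate support. Without CD8α− array 2 the marker counts were 15 and 9, and the shares of all genes were higher too, at 15.9% brighter and 12.4% dimmer, so counts without that array are to be read against these. CD8α− array 2 stood apart. Its log2 signals over tested probe sets correlated with those of CD8α− array 1 at r = 0.836, below the 0.862 and 0.872 of CD8α− array 1 with the CD8α+ arrays, and the CD8α+ pair correlated at 0.957. Its Gapdh control read 10.8 times more signal at the 3′ than at the 5′ end, against 1.53 to 2.02 on the other arrays, and its median deposited signal was 17.4 against 22.9 to 35.1. The matching Actb ratio went the other way, at 0.759 against 1.62 to 1.69. Differences of the tested member probe sets, and counts of the related lists, are therefore also given without that array. In RNA of sorted populations, fewer expressing cells and less RNA per cell cannot be told apart.

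**Figure D1:**
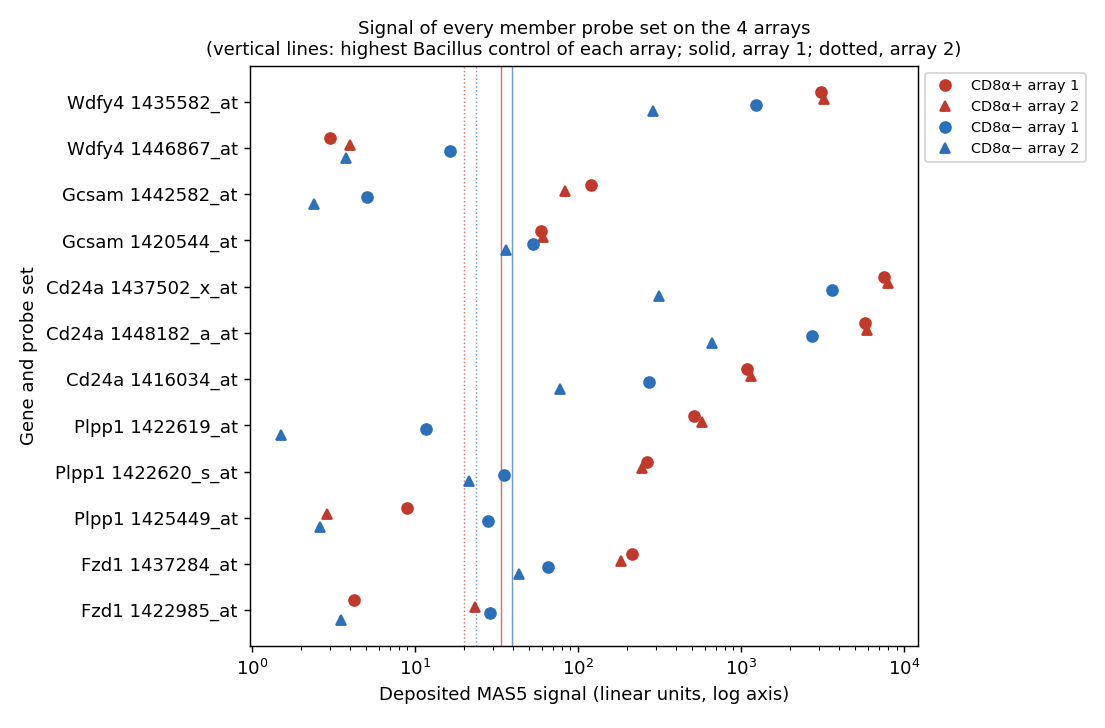
Deposited MAS5 signal (linear units, log axis) of each of the 12 probe sets on the 4 arrays, in red for CD8α+ and blue for CD8α−, with vertical lines at the highest Bacillus control of each array. On 9 probe sets both red points lie right of both blue points, narrowly so on Gcsam 1420544_at, and the points of the other 3 lie mostly left of the lines.

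All 5 genes were brighter on both CD8α+ arrays than on both CD8α− arrays on at least 1 probe set. Of the 12 probe sets, 9 passed the filter on low signal and were tested. Of these, 8 had groups that did not overlap, with CD8α+ above, and 7 had an unadjusted p under 0.05 with CD8α+ brighter. The filter used the mean over all arrays. Plpp1 1422619_at and Gcsam 1442582_at passed it only through their CD8α+ signals, so their part in these counts is no separate support. Among all 22521 tested probe sets, 26.1% had both CD8α+ arrays above both CD8α− arrays and 7.82% had an unadjusted p under 0.05 with CD8α+ brighter (7.83% with CD8α+ dimmer). With limma and Benjamini-Hochberg adjustment over all tested probe sets, 0 of the 9 had an adjusted p under 0.05, as had 0% of all probe sets. Without CD8α+ array 1, or without CD8α+ array 2, the 7 became 4. Without CD8α− array 1, where only the CD8α+ pair gives a spread, 7 had an adjusted p under 0.05, against 12.7% of all probe sets. The lowest adjusted p with all arrays was 0.113. The 3 probe sets of Plpp1 and Gcsam on which both CD8α− arrays lay below background were tied at it. Many other probe sets shared that value, since Plpp1 1422620_s_at ranked only 109 by p.

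Plpp1, the lipid phosphatase on chromosome 13 (chr13:112800777-112867894), had CD8α− signals below background on both tested probe sets. On 1422619_at its deposited signals were 512 and 574.6 on CD8α+ arrays 1 and 2 and 11.7 and 1.5 on CD8α− arrays 1 and 2. Both CD8α− signals lay below background, so CD8α+ cells were at least 13.0-fold brighter, and the fitted difference was 5.73 ± 0.32 (adjusted p = 0.113). That size and the standard error rest in part on signals at or near the floor, since CD8α− array 2 was set to it. This probe set had the smallest p of the 22521 tested, a rank that the floor helps to set.

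A second Plpp1 probe set gave the same order of groups at a smaller size. On 1422620_s_at the signals were 263.5 and 246.5 in CD8α+ cells and 35.1 and 21.5 in CD8α− cells, again below background in the latter. The groups did not overlap, CD8α+ cells were at least 6.18-fold brighter, and the fitted difference was 2.80 ± 0.33 (adjusted p = 0.113). Without CD8α− array 2 the differences were 5.61 on the first probe set and 2.96 on the second. The third, 1425449_at, read 8.9, 2.9, 27.9 and 2.6 in the order CD8α+ arrays 1 and 2, CD8α− arrays 1 and 2. It was not above background on any array, did not pass the filter and gives no fold.

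Gcsam, the motility adaptor, was read differently by its probe sets. On 1442582_at the signals were 120.8 and 83.2 on the CD8α+ arrays and 5.1 and 2.4 on the CD8α− arrays. The groups stood apart, with both CD8α− arrays below background, which gives at least 2.64-fold and a fitted difference of 3.54 ± 0.35 (adjusted p = 0.113). Both CD8α− arrays were at the floor, which sets their spread to 0, so the standard error leaves out the variation between them. On 1420544_at the signals were 59.2 and 60.9 on the CD8α+ arrays and 52.8 and 36.3 on the CD8α− arrays, all above background. After normalization the groups overlapped, at 53.25 and 55.4 against 41.15 and 63.8, and the difference was 0.08 ± 0.37 (adjusted p = 0.922). The difference without CD8α− array 2 was 3.54 on 1442582_at, where the removed array was at the floor like the one that remained, and 0.40 on 1420544_at. On the latter it was -0.23 without CD8α− array 1 and -0.36 with arrays scaled to a common trimmed mean, so its sign was not settled. Which Gcsam transcripts each probe set reads was not analysed here.

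Wdfy4, the cross-presentation gene on chromosome 14, was well above background in both populations. On 1435582_at the signals were 3086.9 and 3247.2 on the CD8α+ arrays and 1240 and 289.7 on the CD8α− arrays. The CD8α+ pair lay close together and above both CD8α− arrays, which were themselves far apart. After normalization CD8α+ cells were 2.76-fold brighter, a difference of 1.47 ± 0.43 (adjusted p = 0.251), and 1.02 without CD8α− array 2. Taken singly, CD8α− array 1 lay 1.02 and array 2 lay 1.92 log2 units below the CD8α+ mean. A second probe set, 1446867_at, read 3, 4, 16.3 and 3.8 in the same order as above, was below background on every array and was not tested.

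Cd24a, the glycoprotein on chromosome 10 (chr10:43579169-43584265), was bright in both populations and brighter in CD8α+ cells on each of its 3 probe sets. On 1448182_a_at the signals were 5763.8 and 5929.3 on the CD8α+ arrays and 2722.1 and 660.3 on the CD8α− arrays. The groups did not overlap, and the difference was 1.35 ± 0.45, or 2.55-fold (adjusted p = 0.283). On 1416034_at the signals were 1092.6 and 1144.3 against 273.8 and 77.2, also without overlap, and the difference was 2.01 ± 0.39, or 4.04-fold (adjusted p = 0.162). The probe set 1437502_x_at, whose suffix marks probes that can bind other transcripts, read 7516.9 and 7929.6 against 3619.1 and 313.6, a difference of 2.11 ± 0.82, or 4.31-fold (adjusted p = 0.330).

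The Cd24a probe sets differed in how far apart they placed the CD8α− arrays and in the difference that remained without CD8α− array 2. After normalization CD8α− array 1 exceeded array 2 by 0.98 on 1448182_a_at, 0.73 on 1416034_at and 2.29 log2 units on 1437502_x_at, while the median absolute gap of that pair over all tested probe sets was 0.68. Without CD8α− array 2 the differences were 0.86, 1.65 and 0.96 in the same order, so the largest estimate of the 3, on 1437502_x_at, rested on that array.

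Fzd1, the Wnt receptor on chromosome 5 (chr5:4753839-4758216), was brighter in CD8α+ cells on the probe set that was tested. On 1437284_at the signals were 214.3 and 184.7 on the CD8α+ arrays and 65.5 and 43.6 on the CD8α− arrays, all above background and without overlap. The difference was 1.24 ± 0.37, or 2.36-fold (adjusted p = 0.258), and 1.52 without CD8α− array 2. On 1422985_at the signals were 4.2, 23.3, 28.8 and 3.5 in the order CD8α+ arrays 1 and 2, CD8α− arrays 1 and 2. The arrays of each group disagreed there by more than the groups did, 1 array exceeded background, and the probe set was not tested.

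**Figure D2:**
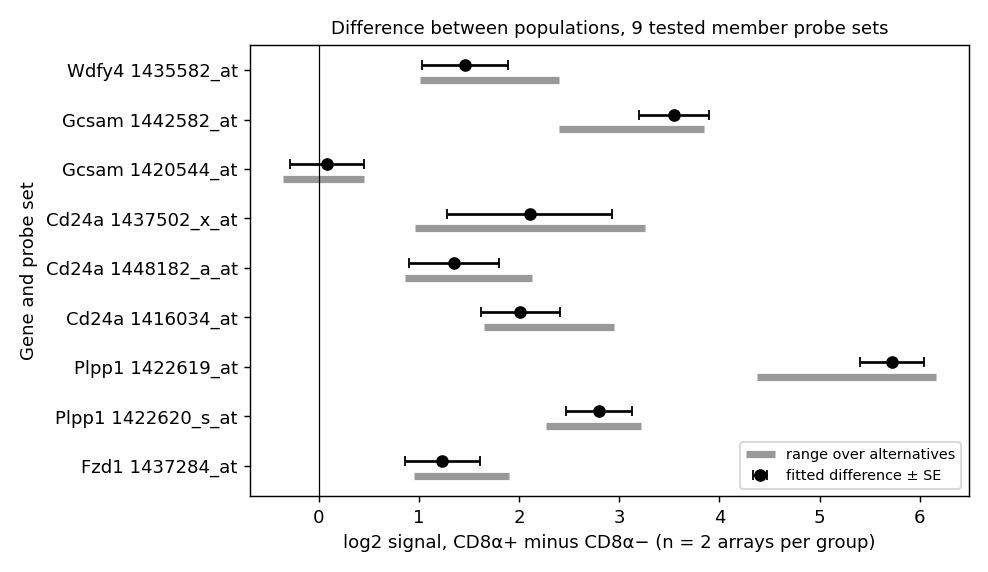
Fitted log2 difference, CD8α+ minus CD8α−, of the 9 tested probe sets (points, ± SE of the limma fit, n = 2 arrays per group), with grey bars for the range over the alternative settings. Plpp1 on 1422619_at lies farthest from 0 at 5.73, Gcsam on 1420544_at is the one whose grey bar crosses 0, and the differences of Gcsam 1442582_at and of both Plpp1 probe sets rest on CD8α− signals below background.

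Of the 9 tested probe sets, 3 had CD8α− signal within background (both of Plpp1 and Gcsam 1442582_at) and 6 had CD8α− signal above it (Wdfy4, the 3 of Cd24a, Fzd1 and Gcsam 1420544_at). For Wdfy4, Cd24a and Fzd1 the CD8α− arrays parted from each other more than the CD8α+ arrays did. The CD8α+ SD in log2 units was 0.05 for Wdfy4, 0.0045 to 0.038 for Cd24a and 0.19 for Fzd1, against a CD8α− SD of 0.64, 0.52 to 1.62 and 0.40. Wdfy4 and Cd24a were brighter on CD8α− array 1 than on array 2 after normalization, by 0.90 log2 units for Wdfy4, whereas Fzd1 was dimmer there by 0.57. Over all tested probe sets the median absolute gap was 0.22 between the CD8α+ arrays and 0.68 between the CD8α− arrays.

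**Figure D3:**
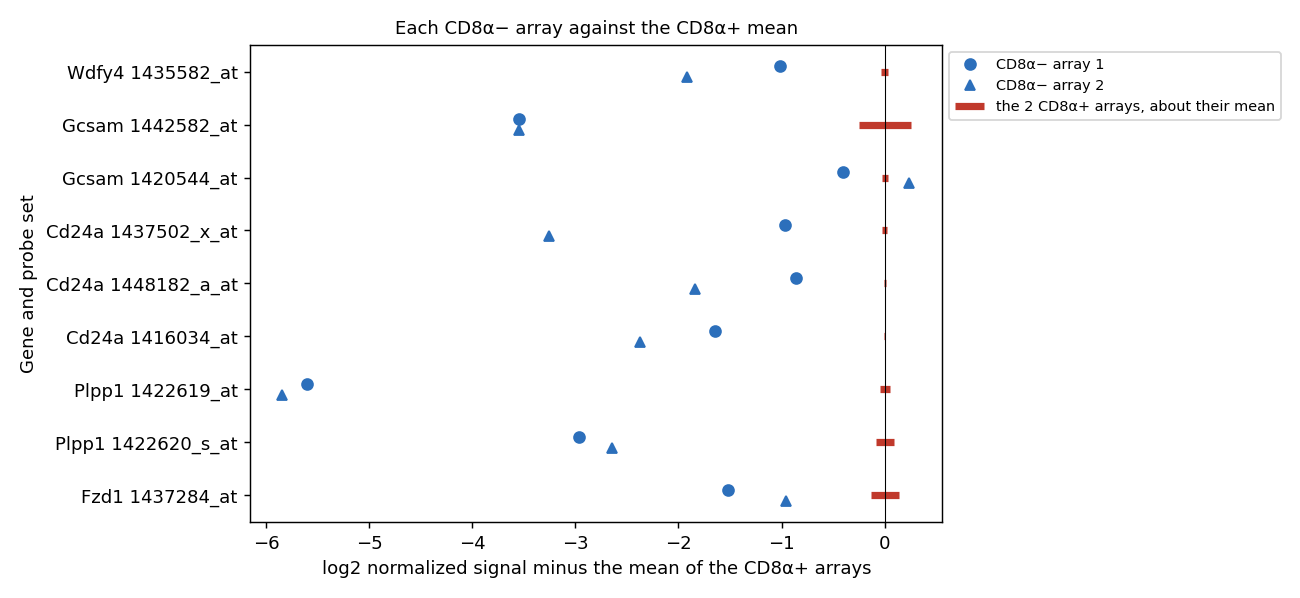
Normalized log2 signal of CD8α− array 1 (circles) and array 2 (triangles) minus the mean of the CD8α+ arrays for the 9 tested probe sets, with red bars spanning the CD8α+ arrays about their mean. Both CD8α− arrays lie left of the red bar on 8 probe sets, and on Gcsam 1420544_at they lie on either side of it, at -0.40 and 0.23.

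Markers of other cells that carry these genes gave the following levels. B cells express Wdfy4, Gcsam and Cd24a, and erythroid cells and neutrophils express Cd24a. Of 12 B cell markers, 6 were tested, with a summed normalized signal of 338 and 373 on the CD8α+ arrays and 434 and 486 on the CD8α− arrays, and Cd79a and Pax5 did not pass the filter. The B cell gene Ms4a1 read 163 and 182.7 on the CD8α+ arrays against 58.5 and 30.6, a difference of 1.50 ± 0.31 (adjusted p = 0.173), while Blk read 48.8 and 36.3 against 144.9 and 82 (-1.96 ± 0.34, adjusted p = 0.141). Of 10 erythroid markers 4 were tested and summed to 703 and 702 against 864 and 1150, with Hba-a1, Klf1 and Alas2 not passing the filter. Most of the erythroid signal was Tfrc, deposited at 737.2 and 743.3 on the CD8α+ arrays against 605.7 and 402.4. Of 10 neutrophil markers 7 were tested and summed to 7375 and 8031 against 15010 and 12450. After quantile normalization these sums were lower on both CD8α+ arrays. The deposited signals, which are not scaled between arrays, did not keep that order. As deposited, the erythroid sums were 874 and 899 on the CD8α+ arrays against 866 and 530, the B cell sums 384 and 424 against 471 and 249, and the neutrophil sums 8946 and 9813 against 14740 and 7451. The median difference of the B cell list was 0.07, with members on either side of 0. With median centring it was 0.43, where all tested probe sets had a median of 0.65. Relative to the median of all tested probe sets in each scaling, the list median ran from -0.35 to 0.05 for B cell markers. It ran from -0.94 to -0.75 for erythroid and from -1.14 to -0.92 for neutrophil markers. The part of such cells in the results was not tested.

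Other genes of the BEACH and WDFY families differed in both directions. Among 8 tested genes, 1 was brighter (Wdfy1) and 1 dimmer (Lyst) at an unadjusted p under 0.05, and the median difference was 0.37 against -0.02 over all tested genes. Wdfy1, an endosomal adaptor of Toll-like receptor signalling, read 181.4 and 178.2 on the CD8α+ arrays against 65.2 and 45.2, a difference of 1.07 ± 0.38 (adjusted p = 0.299). Lyst, the lysosomal trafficking regulator mutated in beige mice, read 70.1 and 159.1 against 234 and 133.2 (-1.62 ± 0.48, adjusted p = 0.253). The closest relative of Wdfy4, the autophagy scaffold Wdfy3, differed by 0.77 ± 0.31 and Nsmaf by 1.05 ± 0.52, while Lrba (-0.04 ± 0.32), Wdfy2 (0.02 ± 0.33), Nbeal1 (0.38 ± 0.38) and Nbeal2 (0.35 ± 0.38) lay near 0. Without CD8α− array 2 the counts were 3 brighter and 0 dimmer, where 15.9% and 12.4% of all genes were, and the differences were 1.39 for Wdfy1 and -1.42 for Lyst. Nbeal2 was above background on 1 of the CD8α− arrays, so its difference is not exact.

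Of 13 tested genes named in cross-presentation, 0 were brighter and 2 dimmer at an unadjusted p under 0.05, and the median difference was -0.02. The dimmer ones were the oxidase subunit Cybb, at 144.9 and 181.3 against 810.4 and 413.5 (-2.76 ± 0.32, adjusted p = 0.113), and the GTPase Rac2 (-0.93 ± 0.33, adjusted p = 0.302). On the deposited scale the Rac2 difference was 0.06, where all tested probe sets had a median of 0.63. Relative to the median of each scaling, Rac2 ranged from -0.94 to -0.54. The GTPase Rab43 (0.91 ± 0.43) and the peptide transporter subunit Tap1 (0.91 ± 0.40) had the largest positive differences. With CD8α− array 2 left out, 2 were brighter and 3 dimmer, the former a share of the list close to the 15.9% of all genes.

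Of 7 tested genes in a list of Frizzled receptors other than Fzd1, Wnt co-receptors and Smo, 1 was brighter and 1 dimmer at an unadjusted p under 0.05. The brighter one was Fzd5, which read 76.7 and 65.1 on the CD8α+ arrays against 11.4 and 6.4. It was below background in CD8α− cells, which gives at least 1.94-fold and a fitted difference of 2.72 ± 0.34 (adjusted p = 0.113). Fzd5 passed the filter only through its CD8α+ signals, so its part in the count is no separate support. The dimmer one was the hedgehog transducer Smo, below background in CD8α+ cells (-1.38 ± 0.45, at least 1.72-fold). Smo is not a Wnt receptor, so none of the listed Frizzled receptors or Wnt co-receptors was dimmer, and the list's median below includes it. The co-receptor Lrp6 differed by 1.02 ± 0.41, Lrp5 by -0.51 ± 0.33, Fzd6 by -0.34 ± 0.51 and Fzd7 by -0.34 ± 0.79. Fzd4 was below background on both CD8α− arrays and has no fold. Lrp5 and Fzd6 did not exceed background on 1 array, so their differences are not exact. The list's median was -0.34 and became 0.50 without CD8α− array 2, where 3 were brighter and 0 dimmer, against 15.9% and 12.4% of all genes. Among 12 tested Wnt pathway transducers 0 were brighter and 4 dimmer, where 8.84% of all tested genes were dimmer. The 4 were the Wnt secretion protein Wls, the ubiquitin ligases Rnf43 and Znrf3 and the scaffold Axin2. Wls was below background on both CD8α+ arrays and at least 3.19-fold dimmer there, and Znrf3 differed by -0.97 ± 0.35. Rnf43 was below background on both CD8α+ arrays and on 1 CD8α− array, and Axin2 on 1 CD8α+ array, so neither has a fold. Rnf43 passed the filter only through its CD8α− signals, so its part in the count is no separate support. Leaving out CD8α− array 2, 1 transducer was brighter and 4 dimmer. Beta-catenin (Ctnnb1) differed by 1.05 ± 0.50.

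Of 13 other lipid phosphate phosphatases and related genes 5 were tested, and 0 were brighter or dimmer at an unadjusted p under 0.05. Plpp2 was below background on both CD8α− arrays and at least 1.40-fold brighter in CD8α+ cells. Plppr4, which read 76.8 and 75.3 against 18.9 and 34.2, and Plpp6 were below it on 1 CD8α− array and have no fold. Plpp5 differed by -0.24 ± 0.37 and the sphingosine phosphate phosphatase Sgpp1 by 0.07 ± 0.34. Plpp6 read 69.5 and 24.4 on the CD8α+ arrays against 67.1 and 5.5. When CD8α− array 2 was left out, 2 of the 5 were brighter, in a setting where 15.9% of all genes were.

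Genes that make or sense the lipids on which Plpp1 acts differed in both directions. Of 9 tested, 3 were brighter and 1 dimmer at an unadjusted p under 0.05. The lysophosphatidic acid receptor Lpar6 read 1135.9 and 1029.1 on the CD8α+ arrays against 86.6 and 61.6, a difference of 3.07 ± 0.39, or 8.38-fold (adjusted p = 0.113). The sphingosine 1-phosphate receptor S1pr2 read 60.1 and 42.8 against 3.7 and 3.9 (at least 1.49-fold, adjusted p = 0.113). The kinase Sphk2 read 93.2 and 75.1 against 12.3 and 17.7 (at least 2.25-fold, adjusted p = 0.233), and both genes were below background in CD8α− cells. S1pr2 passed the filter only through its CD8α+ signals, so its part in the count is no separate support. Both its CD8α− arrays were at the floor, so its p leaves out the variation between them. Lpar1, another receptor of lysophosphatidic acid, read 17.2 and 31.1 against 85.3 and 38.5 (adjusted p = 0.243), with 1 CD8α+ array below background, so that it has no fold. Sgpl1, the lyase that degrades sphingosine 1-phosphate, differed by 0.25 ± 0.35. Sphk1 differed by -1.04 ± 0.49, and S1pr3, S1pr4 and Agk were below background on 1 array and have no fold. After leaving out CD8α− array 2, 4 were brighter and 1 dimmer, and the Lpar6 difference was 3.41.

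Of 7 tested signalling partners of Gcsam and Cd24a, 0 were brighter and 2 dimmer. Siglecg, the receptor that binds Cd24a, read 160.2 and 153.5 on the CD8α+ arrays against 1345.2 and 129.8. After normalization the groups did not overlap, with a difference of -2.34 ± 0.79 (adjusted p = 0.285), and CD8α− array 1 was by far the brighter of its pair. The Src family kinase Fgr read 118.2 and 127 against 550.7 and 489.7 (-2.96 ± 0.44, adjusted p = 0.126). Of the partners of Gcsam, Syk differed by -0.37 ± 0.75 and Grb2 by -0.01 ± 0.42, and the GTPase Rhoa and its exchange factors Arhgef11 and Arhgef12 by -0.48 ± 0.36, -0.55 ± 0.36 and 0.40 ± 0.50. In the fit without CD8α− array 2, 0 were brighter and 3 dimmer, with -3.42 for Siglecg and -2.49 for Fgr.

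**Figure D4:**
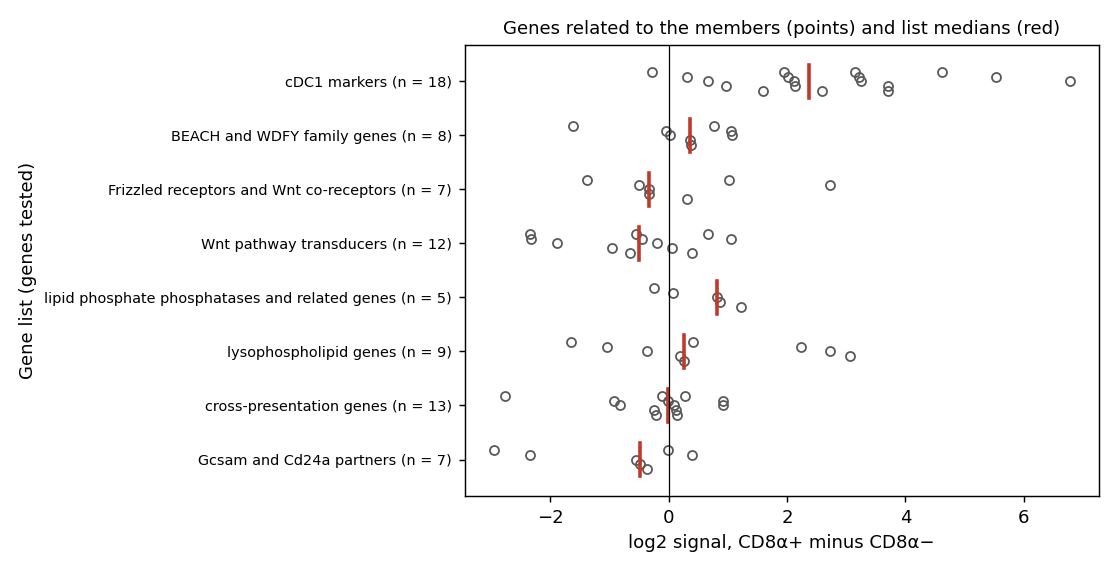
Log2 difference, CD8α+ minus CD8α−, of each tested gene (points) in the cDC1 marker list and the lists related to the members, with list medians in red. The cDC1 markers lie mostly right of 0, while the medians of the other lists lie between -0.50 and 0.82.

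Genes with the most similar profile over the 4 arrays were found for the brightest tested probe set of each member outside the _x_at class, by the root mean square difference of centred log2 signals among 10529 other genes. With 4 arrays this is a description with little power to single genes out. The nearest genes to Plpp1 were Mab21l3 (0.29), Gm36723 (0.36) and Fam149a (0.50 log2 units). The distance is not scaled to the size of a difference. A gene with a difference as large as that of Plpp1 therefore lies far from most others whatever its pattern. Wdfy4 was nearest to Rsad1 (0.052), Zbtb48 (0.054) and Capn1 (0.063), Cd24a to Gpr171 (0.035), Spsb1 (0.039) and Rsad1 (0.044), and Fzd1 to 1110008P14Rik (0.017), Hspb11 (0.049) and Pkn3 (0.050). Rsad1 was near both Wdfy4 and Cd24a. For Gcsam the brightest probe set was 1420544_at, on which the groups overlap, and its nearest genes were Uqcrfs1 (0.014), Mier2 (0.021) and Zbtb44 (0.021).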

How the data were processed

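The authors deposited 1 linear intensity per probe set and array, made with MAS5 per the submitters' processing notes. Scaling targets and detection calls were not used here, and medians of 26.6, 22.9, 35.1 and 17.4 showed that the arrays differed in scale. Per the design text RNA was extracted with RNeasy and labelled as cDNA, but per the labels' protocols with Trizol and as cRNA.

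Controls (64 of 45101 probe sets) were left out. The rest were quantile normalized, floored at 7.28 (the 25th percentile, averaged over arrays) and put on a log2 scale, and the 22521 with a mean at or above the median, 23.7, were tested with limma 3.58.1 (R 4.3.3, lmFit and eBayes, two-sided, Benjamini-Hochberg at 0.05; 2 residual and 2.51 prior degrees of freedom). The code was tested on simulated data. A fold reads "at least" where both arrays of a group lay within background, taken at the higher of background and own signal. Other genes were read on their brightest tested probe set, _x_at names last. Exact permutation of 2 against 2 arrays cannot go below p = 0.333. Array number limits the precision.

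The text names the members, their 3 nearest genes, all tested genes of related lists of up to 10 and the 4 largest differences of longer ones. Blk, Pax5, Klf1, Alas2, Tfrc and Znrf3 were named after their values were seen. Members and lists were chosen with earlier results of these data known.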

Additional observations from a re-analysis of the deposited data

How the results depend on the processing

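Over 12 alternatives the tested probe sets of the 5 genes kept the direction CD8α+ above CD8α− in 104 of 106 values. The exceptions were Gcsam on 1420544_at, at -0.36 with arrays scaled to a common trimmed mean and -0.23 to 0.40 when each array was left out in turn, the lowest without CD8α− replicate 1 and the highest without CD8α− replicate 2. Scaling mattered for all genes together: the median difference was 0.63 on the deposited scale, -0.21 with the trimmed mean and 0.65 with median centring, against 0.01. Relative to that shift Wdfy4 ranged over the scalings from 1.45 to 1.80, Fzd1 from 1.22 to 1.30 and Plpp1 on 1422619_at from 5.25 to 5.77. At unadjusted p, 1762 probe sets were brighter and 1763 dimmer in CD8α+ cells, 2310 and 454 on the deposited scale, 1280 and 3784 with the trimmed mean, and 6018 and 855 with median centring. No filter on low signal gave 3270 and 3316, and the 75th percentile filter 1012 brighter. By adjusted p, 0 member probe sets of 0 in all became 4 of 406 with median centring, 1 of 34 with the 75th percentile filter and 1 of 60 with an intensity trend, and that one was Plpp1 on 1422619_at each time. A replicate block also called that probe set, 1 of 27. Whether the replicate numbers pair the arrays is not known. The deviations of same-numbered arrays correlated at 0.03, but CD8α− replicate 2 stood apart, so this value cannot decide it. Leaving out each array in turn gave 0 to 7 member probe sets and 0 to 2853 probe sets in all by adjusted p, and 477 to 5389 brighter, 660 to 4358 dimmer and 4 to 8 member probe sets brighter at unadjusted p. The 7 and the 2853 came without CD8α− replicate 1, where only the CD8α+ pair gives a spread, which the lone CD8α− array is assumed to share. The 4 came without CD8α+ replicate 1 and without CD8α+ replicate 2. Signal near background limits Plpp1 and Gcsam in CD8α− cells.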
